A study of Mus musculus with 12 samples.

Results

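The 36 genes described here encode the heat shock chaperones of the cytosol and the mitochondria, their co-chaperones, the cytosolic chaperonin, and the heat shock transcription factors Hsf1 and Hsf2. They were chosen by gene symbol from the 24062 symbols of a count table of mouse cortex RNA-seq, with earlier results of the same counts in view. The values of these genes in the 4 genotypes are therefore given as a description, and every p-value comes from a fit across all 15440 genes that passed a filter on low counts. All 36 genes passed that filter.

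Heat shock chaperones bind unfolded or partly folded proteins and use cycles of ATP binding and hydrolysis, or passive holding in the case of the small heat shock proteins, to keep them from aggregating. HSP70 proteins receive their clients from DNAJ co-chaperones and release them with the help of HSP110 proteins, HSP90 acts later on nearly folded clients, and the HSP60 and TRiC chaperonins fold proteins inside a closed chamber. The factor HSF1 binds heat shock elements in the promoters of the inducible members, so that their transcripts rise under proteotoxic stress, and HSP70 and HSP90 with their co-chaperones are known to handle the tau protein in neurons.

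Cortex RNA was measured in mice aged 9 months in 4 groups of 3 mice: wild type (WT), Tia1+/-, PS19 (P301S Tia1+/+) and P301S Tia1+/-. PS19 mice express human tau with the P301S mutation from a transgene driven by the mouse prion protein promoter (Prnp), and serve as a model of tauopathy. Tia1, an RNA binding protein of stress granules, was reduced by 1 targeted allele backcrossed to C57BL/6J, and the P301S Tia1+/+ and P301S Tia1+/- mice were bred as littermates. Total counts ranged from 11978962 in WT replicate 1 to 19146484 in PS19 replicate 1, and levels are given as CPM, counts scaled to a common library size by the TMM method. In bulk tissue, fewer cells of a type and less RNA per cell cannot be told apart.

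The labels were checked against the counts before any comparison. In the labels the genotype entry of a Tia1+/- library gives the P301S Tia1+/- genotype and the reverse, so the groups follow the library titles, which match the columns of the table. The levels of Tia1, Xist and Ddx3y given below do not tell these 2 groups apart, so which entry is right was not settled. Were the genotype entries right, the values given for these 2 groups would trade places. Tia1 itself did not separate the groups, at 75.4 to 93.8 CPM in WT, 61.4 to 79.8 in Tia1+/-, 70.8 to 77.9 in PS19 and 72.6 to 77.8 in P301S Tia1+/- libraries. Xist was counted 3304 to 5693 times in the 6 libraries of the Tia1+/- and P301S Tia1+/- groups and 0 to 13 times in the 6 others, whereas Ddx3y was counted 0 to 2 times and 1605 to 2296 times. This is the pattern of female tissue in the former and male tissue in the latter, although the methods state that only males were used unless noted. The paper reports the pattern as regulation by TIA1, with PCR on separate, younger males that gave higher Xist and lower Ddx3y and other Y-linked transcripts in Tia1+/- brain. In younger females it also reports higher Xist with Tia1+/-, and no detectable Y-linked transcripts. By the counts here, each comparison of Tia1+/- with Tia1+/+ mice is also one of apparent sex, and the 2 cannot be told apart. Markers of cortical excitatory neurons were present in every library, at a summed 948.7 to 2227 CPM. Olfactory bulb markers summed to 642.3 CPM in WT replicate 1 and to 382.9 to 492.3 CPM in the P301S Tia1+/- libraries, against 2.4 to 85.4 CPM in the others, and striatal markers to 927.1 CPM in Tia1+/- replicate 3 against 58.7 to 154.8 CPM. Beside the chaperone levels, immediate early genes summed to 737.8 to 1069 CPM in WT, 337.5 to 845.0 in Tia1+/-, 262.1 to 759.9 in PS19 and 608.7 to 737.7 in P301S Tia1+/- libraries, and oligodendrocyte markers to 1598 to 2426, 2836 to 3761, 2049 to 3570 and 2147 to 2403 CPM. Microglial markers summed to 149.5 to 172.0 CPM in WT, 159.2 to 232.3 in Tia1+/-, 194.1 to 250.8 in PS19 and 191.6 to 197.8 in P301S Tia1+/- libraries, so that PS19 and P301S Tia1+/- did not overlap with WT. Of the 5 red blood cell markers, the 4 globin genes were at 0 in every library, whereas Alas2 had at least 23 counts in each. Whether the tissue held blood was not tested. The part of these tissue differences in the chaperone levels was not tested, except by the values below that leave out WT replicate 1 and Tia1+/- replicate 3 and by a fit with the log2 of the summed bulb markers as a covariate.

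The inducible HSP70 genes Hspa1a and Hspa1b had the lowest log2 fold changes from WT among the HSP70, HSP90 and DNAJ members in all 3 other genotypes. They lie side by side on the minus strand of chromosome 17 (GENCODE M21 on GRCm38, chr17:34969190-34972156 for Hspa1a and chr17:34956436-34959238 for Hspa1b). Of the 50-base stretches of their transcripts, 66.3% in Hspa1a and 62.3% in Hspa1b occur in another gene, mostly in each other, so the split of reads between them is uncertain. The 150 bases before their RefSeq transcription starts (GRCm38.p6, chr17:34972157-34972306 and chr17:34959239-34959388, minus strand, written 5′ to 3′) are printed because both genes are called in the same comparisons below, and capitals mark a pair of heat shock element units, GAANNTTC, that starts 104 bases before the start of each gene.
Hspa1a: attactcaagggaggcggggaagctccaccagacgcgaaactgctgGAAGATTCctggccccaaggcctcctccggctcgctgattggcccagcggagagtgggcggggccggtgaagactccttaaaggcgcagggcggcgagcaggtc
Hspa1b: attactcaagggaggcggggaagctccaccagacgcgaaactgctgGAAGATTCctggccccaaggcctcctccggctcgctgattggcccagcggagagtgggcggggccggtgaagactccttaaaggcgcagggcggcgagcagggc
The printed stretches share 149 of 150 bases, and the 250 bases before the start share 247.

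RefSeq promoter windows of 300 bases, 250 before and 50 after the start, were found for 28 of the 36 genes. The 2-unit motif (GAANNTTC or TTCNNGAA, each its own reverse complement) was present in the windows of 16 of these 28 genes (57.1%), against 17.0% of all 27025 genes with a window. The 3-unit motif (GAANNTTCNNGAA or TTCNNGAANNTTC, which are reverse complements and each contain the 2-unit motif) was present in 5 of 28, against 0.662% of all genes. These 5 were Chordc1, Hsph1, Dnajb6, and Hspd1 with Hspe1, whose windows overlap on opposite strands and share the same sites. The sites, with the motif in capitals, are printed because Chordc1 and Hsph1 were each called in 2 of the comparisons below.
Chordc1: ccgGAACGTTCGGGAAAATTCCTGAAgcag
Hsph1: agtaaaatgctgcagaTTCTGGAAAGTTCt
Hspe1: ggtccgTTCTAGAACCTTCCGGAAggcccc
Dnajb6: ctccgaGAATCTTCCGGAAcgctagaccag
The stretches lie on GRCm38.p6 at chr9:18292260-18292289 (plus strand) for Chordc1, chr5:149636287-149636316 (minus) for Hsph1, chr1:55088053-55088082 (plus) for Hspe1 and chr5:29735846-29735875 (plus) for Dnajb6. In Chordc1 the capitals span overlapping copies of the motif across the transcription start, and in Hsph1 the site lies after it. The motif and the calls did not go together throughout. Of the other members called in the main edgeR fit below, Hspa1a, Hspa1b and Dnaja1 had only the 2-unit motif, and Dnajb1 and Hspa4l had neither. Hspd1, Hspe1 and Dnajb6 were not called in that fit. The presence of these letters describes the windows and does not show that a factor bound there in these mice.

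The members differed widely in level. Per kb of annotated exon, Hspa8, the constitutive cytosolic HSP70, had the highest mean level at 740 CPM per kb, followed by the HSP90 genes Hsp90aa1 (514) and Hsp90ab1 (401) and, far lower, by Stip1 (96.1), the adaptor between HSP70 and HSP90. The mitochondrial chaperonin Hspd1 (HSP60) was at 85.6 CPM per kb and the TRiC subunits Cct8, Cct2 and Cct5 at 76.7, 75.2 and 72.9. Hspa1a and Hspa1b, at 4.98 and 5.24 CPM per kb, were near the bottom of the order, with Hsf2 (3.82), Hsf1 (2.72) and Bag3 (0.841), a co-chaperone of HSP70 in selective autophagy. Counts of members with processed copies elsewhere in the genome are less certain, as 74.8% of the 50-base stretches of Hspa8, 58.5% of Hsp90aa1 and 51.6% of Hspb1 occur in another gene. Among the other members, the share was 44.8% in Hspd1, 44.8% in Hspe1, 42.8% in Dnajb6 and 28.8% in Dnaja1.

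Across the libraries, the WT mean was the highest of the 4 group means in 30 of the 36 genes. WT replicate 1 was the highest single library in 16 genes, WT replicate 2 in 12 and WT replicate 3 in 2. Neither the order of the group means nor that of the libraries was counted over all genes tested. All 3 WT libraries lay above the other 9 in 12 genes, namely Hspa1a, Hspa1b, Hspa4, Hspa8, Hspa9, Hsph1, Dnaja1, Dnajb1, Hspd1, Chordc1, Stip1 and Fkbp4, and 3.34% of all genes tested had this pattern. The 36 genes together took 1.18% to 1.47% of the counts in WT libraries and 1.04% to 1.15% in the other 9.

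**Figure D1:**
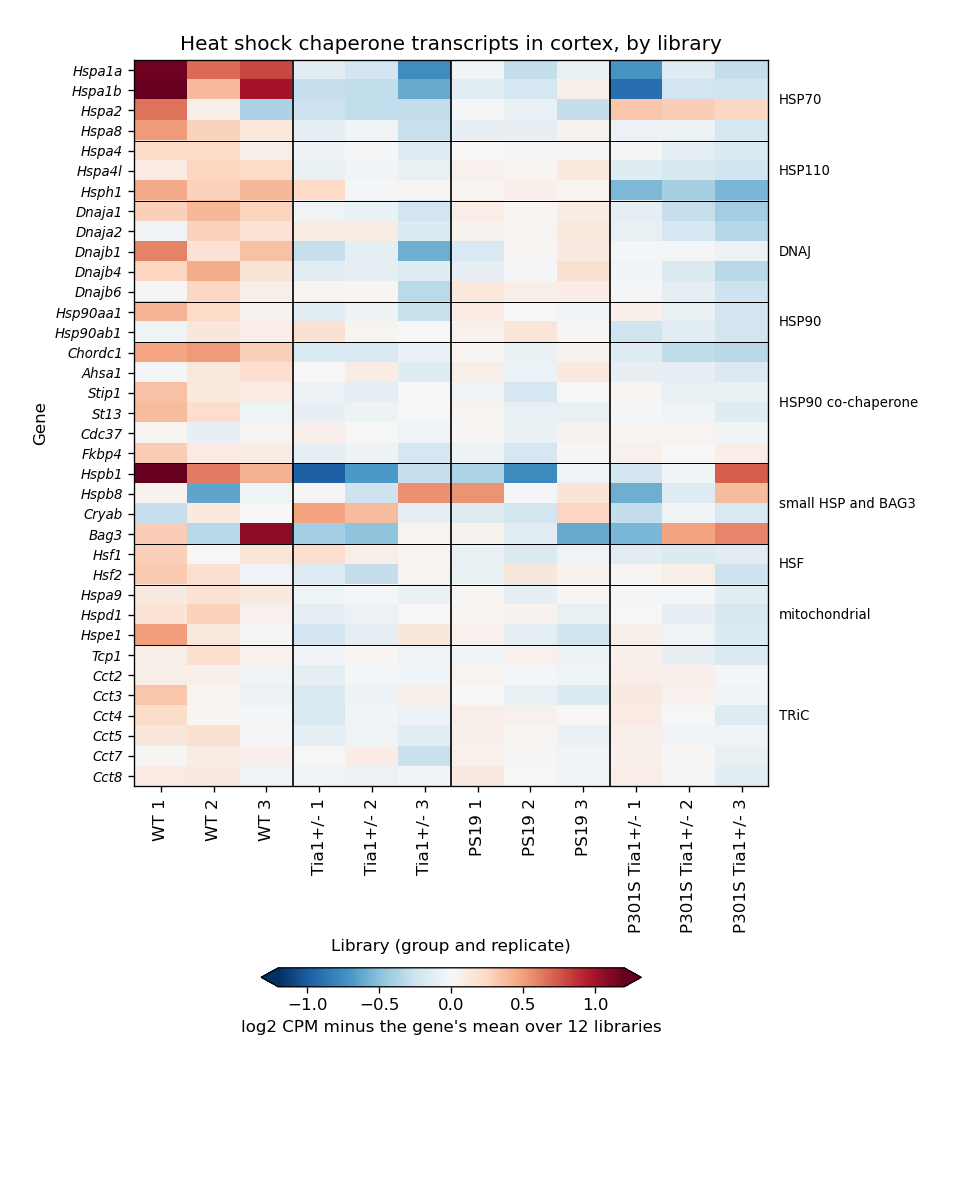
Level of each of the 36 chaperone genes (vertical axis, ordered by family) in each of the 12 libraries (horizontal axis), as log2 CPM minus the mean of that gene over all libraries. Red cells gather in the 3 WT columns for most HSP70, HSP110 and DNAJ rows and for Chordc1 (Hspa2, lowest in WT replicate 3, and Dnaja2 and Dnajb6 are exceptions), with Hspa1a at 30.6, 21.7 and 23.7 CPM in WT and at most 13.3 elsewhere, while the TRiC rows are pale throughout.

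PS19 and WT cortex were compared to ask which chaperone transcripts differ with P301S tau. In this comparison 32 of the 36 genes had a fold change below 0 on the log2 scale, with a median log2 fold change of -0.19 against -0.01 over all genes tested, and the lowest values were those of Hspb1, Hspa1b and Hspa1a. No member passed the threshold of an adjusted p of 0.05 with edgeR's quasi-likelihood test, which called 0% of all genes. At an unadjusted p under 0.05, 16 members were lower and 0 higher, against 16.3% of all genes in either direction, and DESeq2 called 6 members (2.89% of all genes). Without WT replicate 1 and Tia1+/- replicate 3, edgeR called 1 member, Hspa1a (0.476% of all genes). With the summed bulb markers as a covariate it called 0 members, against 6.17% of all genes.

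Hspa1a was at 30.6, 21.7 and 23.7 CPM in the WT libraries and at 13.3, 11.1 and 12.8 in the PS19 libraries. Hspa1b was at 35.9, 17.3 and 26.2 CPM in WT and at 12, 11.4 and 13.9 in PS19. For both genes every PS19 library lay below every WT library, with log2 fold changes of -1.03 (SE 0.20, edgeR adjusted p = 0.133) and -1.09 (SE 0.25, adjusted p = 0.157).

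Chordc1, a co-chaperone of HSP90, was at 126, 130 and 111 CPM in WT and at 92.4, 86.1 and 93.8 in PS19, with a log2 fold change of -0.43 (SE 0.08, edgeR adjusted p = 0.133). Hsph1, the HSP110 that exchanges the nucleotide of HSP70, was at 435, 384 and 419 CPM in WT and at 323, 330 and 325 in PS19, with a log2 fold change of -0.34 (SE 0.09, adjusted p = 0.160). Hspb1, a small heat shock protein, was at 14.7, 7.27 and 6.39 CPM in WT and at 3.69, 2.80 and 4.58 in PS19, with a log2 fold change of -1.35 (SE 0.37, adjusted p = 0.17). Over all alternatives run, the value of Hspb1 ranged from -1.55 to -0.25, and it was -0.87 without WT replicate 1. The values of Chordc1 ranged from -0.48 to -0.30 and those of Hsph1 from -0.39 to -0.29. The PS19 libraries lay below the WT libraries in each of these 3 genes, and in 14 members in all, against 11% of all genes. The 7 TRiC subunits measured had log2 fold changes of -0.19 to -0.02.

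**Figure D2:**
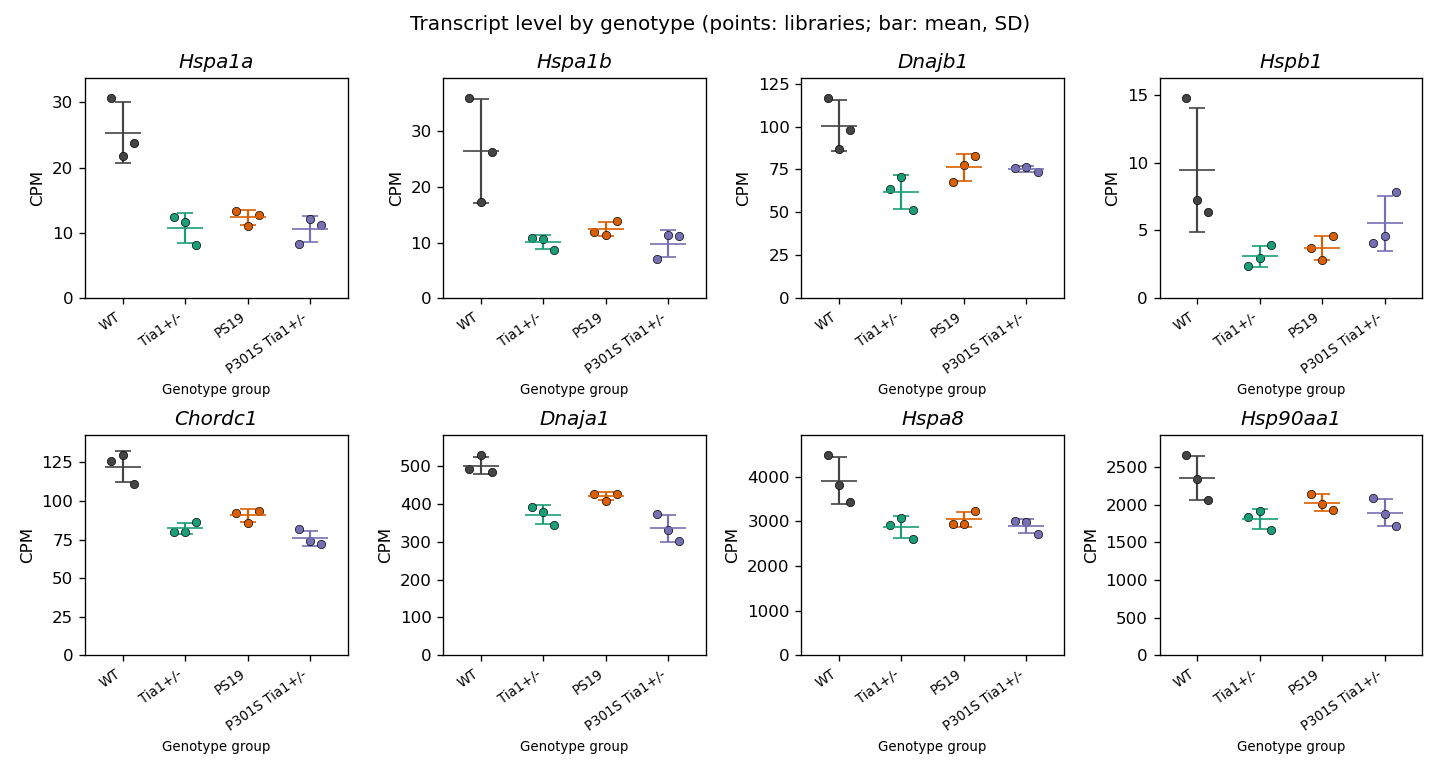
CPM (vertical axis, from 0) of 8 chaperone genes by genotype group (horizontal axis). Points are the 3 libraries of a group and bars the mean and SD; the WT points of Hspa1a, Chordc1, Dnaja1 and Hspa8 lie above all others, whereas those of Hsp90aa1 overlap with PS19 (2068 CPM in WT replicate 3 and 2145 in PS19 replicate 1).

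Tia1+/- and WT cortex, which also differed in apparent sex, were compared to ask which chaperone transcripts differ with the loss of 1 Tia1 allele. Hspa1a, Hspa1b, Chordc1 and Dnajb1 fell in Tia1+/- cortex, and no member rose. The 4 called members stand against 0.712% of all genes called with edgeR's quasi-likelihood test, 110 genes in either direction. The median log2 fold change was -0.25 against 0.01 over all genes, and 19 members had every Tia1+/- library below every WT library, against 10.4% of all genes.

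Dnajb1, an inducible DNAJ protein that delivers clients to HSP70, was at 116, 87.0 and 98.2 CPM in WT and at 63.7, 70.8 and 51.4 in Tia1+/- libraries. Its log2 fold change was -0.70 (SE 0.13, edgeR adjusted p = 0.0458). Hspa1a was at 12.5, 11.6 and 8.12 CPM in Tia1+/- libraries, with a log2 fold change of -1.24 (SE 0.20, adjusted p = 0.0375). Hspa1b was at 10.8, 10.7 and 8.63 CPM, with a log2 fold change of -1.40 (SE 0.26, adjusted p = 0.0446). In all 3 genes the groups did not overlap, and the lowest Tia1+/- level was that of replicate 3, the library with the striatal markers.

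Chordc1 was at 80.2, 80.1 and 86.3 CPM in Tia1+/- libraries, all below the lowest WT value of 111, and its log2 fold change of -0.57 (SE 0.08) had an edgeR adjusted p of 0.0268. Dnaja1, a farnesylated DNAJ protein of the cytosol, was at 491, 528 and 485 CPM in WT and at 391, 379 and 344 in Tia1+/- libraries, a log2 fold change of -0.43 (SE 0.09) with an adjusted p of 0.0578. The number of called members went from 4 to 0 without WT replicate 1 (0.16% of all genes) and without any 1 of the 3 Tia1+/- libraries (0.0509% to 0.115%). It went to 1 (Hspa1b) without WT replicate 2 (0.0637%) and to 7 without WT replicate 3 (3.16% of all genes). Without both WT replicate 1 and Tia1+/- replicate 3, the libraries with the highest bulb and striatal markers, 3 members were called (1.72% of all genes), and a fit of the 6 libraries of these groups alone called 0 (0.0408% of all genes).

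P301S Tia1+/- and WT cortex differed in both alleles and in apparent sex. Their olfactory bulb markers were at 382.9 to 492.3 CPM in P301S Tia1+/- and at 642.3, 85.4 and 22.7 CPM in WT libraries. Here 6 members fell: Hsph1, Chordc1, Hspa1a, Hspa1b, Dnaja1 and Hspa4l. No member rose, and edgeR called 1.31% of all genes. The median log2 fold change was -0.25 against 0.02 over all genes, 32 of 36 values were below 0, and 19 members had every P301S Tia1+/- library below every WT library, against 10.8% of all genes.

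Hsph1 had the smallest p of the members. It was at 219, 240 and 217 CPM in P301S Tia1+/- libraries, against 384 to 435 in WT, and its log2 fold change was -0.87 (SE 0.09, edgeR adjusted p = 0.00175). Hspa4l, a related HSP110 protein, was at 260, 291 and 286 CPM in WT and at 220, 212 and 206 in P301S Tia1+/- libraries, a log2 fold change of -0.39 (SE 0.07, adjusted p = 0.0302). Both HSP110 genes were thus lower in every P301S Tia1+/- library, and Hspa4, the third HSP110 gene, was at 469, 473 and 421 CPM in WT against 395, 371 and 358, but did not pass the threshold.

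Chordc1 was at 81.6, 73.8 and 72.1 CPM in P301S Tia1+/- libraries, with a log2 fold change of -0.69 (SE 0.08, edgeR adjusted p = 0.00963). Dnaja1 was at 374, 331 and 302 CPM, with a log2 fold change of -0.58 (SE 0.09, adjusted p = 0.0193). Neither gene overlapped with WT, whose lowest values were 111 and 485 CPM.

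Hspa1a was at 8.30, 12.2 and 11.2 CPM in P301S Tia1+/- libraries, with a log2 fold change of -1.26 (SE 0.20, edgeR adjusted p = 0.0193). Hspa1b was at 7.04, 11.3 and 11.1 CPM, with a log2 fold change of -1.43 (SE 0.25, adjusted p = 0.0299). Of the 6 called members, Hsph1 kept its call when any 1 of the 6 libraries was left out. The number called ranged from 1 without P301S Tia1+/- replicate 2 or 3 (0.0894% and 0.0577% of all genes) to 9 without WT replicate 1 (10.5% of all genes). It was 17 without WT replicate 1 and Tia1+/- replicate 3 (47.2%, where 25.8% of all genes were called), and 1 (Hsph1) in a fit of the 6 libraries alone (0.0938% of all genes).

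**Figure D3:**
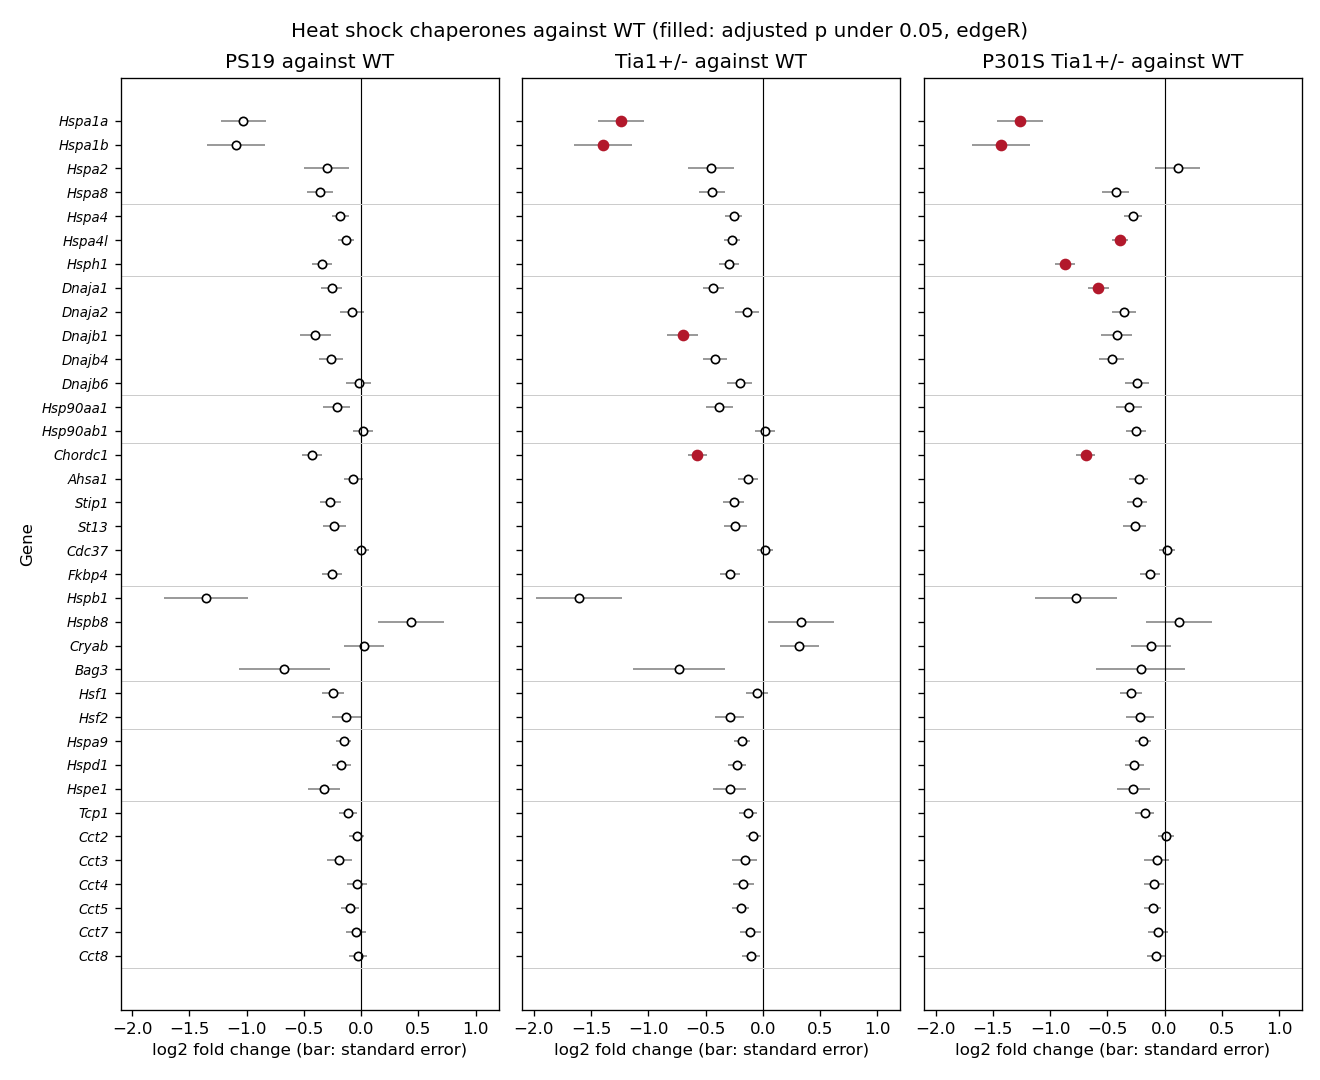
Log2 fold change of each chaperone gene (vertical axis) against WT (horizontal axes) in PS19, Tia1+/- and P301S Tia1+/- cortex, with standard error bars and filled points where the edgeR adjusted p was under 0.05. No point is filled for PS19, 4 are for Tia1+/- and 6 for P301S Tia1+/-, all to the left of 0, and the TRiC subunits at the bottom lie near 0 in each panel. The 3 panels share the WT libraries.

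The 3 comparisons with WT share the same WT libraries, so their values are set side by side only. For Chordc1 the log2 fold changes were -0.43 in PS19, -0.57 in Tia1+/- and -0.69 in P301S Tia1+/- cortex. For Hspa8 they were -0.36, -0.44 and -0.43, from WT levels of 4478, 3814 and 3435 CPM to 2613 to 3239 CPM in the other 9 libraries, and none passed the threshold. Hsp90aa1, the inducible HSP90, was at 2655, 2341 and 2068 CPM in WT and at 1670 to 2145 CPM elsewhere, whereas Hsp90ab1, the constitutive one, was at 1151 to 1315 CPM in WT and at 1194 to 1360 in Tia1+/- and PS19 libraries. Of the HSP90 co-chaperones other than Chordc1, Stip1, St13, Fkbp4 and Ahsa1 had lower means in each genotype than in WT, at 231, 218, 149 and 137 CPM in WT. Cdc37, which recruits kinases to HSP90, was at 93.9 ± 4.88 CPM in WT and 94.1 to 95.2 in the other group means (SD, n = 3).

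P301S Tia1+/- and PS19 cortex were compared to ask which chaperone transcripts differ with the loss of 1 Tia1 allele in the presence of P301S tau. These groups also differed in apparent sex. Hsph1 fell in this comparison, and no other member was called. Hsph1 was at 323, 330 and 325 CPM in PS19 and at 219, 240 and 217 in P301S Tia1+/- libraries, a log2 fold change of -0.53 (SE 0.09, edgeR adjusted p = 0.0440), and the groups did not overlap. This is 1 member of 36, against 0.24% of all genes called, and the median over members was -0.06 against 0.01 over all genes.

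The next members by p were Hspa4l (log2 fold change -0.26, SE 0.07, edgeR adjusted p = 0.117), Dnaja1 (-0.32, SE 0.09, adjusted p = 0.124), Chordc1 (-0.26, SE 0.08, adjusted p = 0.152) and Hsp90ab1 (-0.26, SE 0.09, adjusted p = 0.163). Hsp90ab1 was at 1237, 1326 and 1205 CPM in PS19 and at 1013, 1099 and 1028 in P301S Tia1+/- libraries. In 9 members every P301S Tia1+/- library was below every PS19 library, against 18.2% of all genes. Hspa4l, Hsph1 and Hsp90ab1 were also the only members whose 3 P301S Tia1+/- libraries lay below the other 9, a pattern of 1.86% of all genes. The call of Hsph1 was lost without any 1 of the 6 libraries, with edgeR adjusted p of 0.105 to 0.238, where 0.0382% to 0.0765% of all genes were called. A fit of the 6 libraries alone called 7 members (19.4%, against 20.1% of all genes) and a fit without WT replicate 1 and Tia1+/- replicate 3 called 8 (22.2%, against 22.9% of all genes), shares near the background. Olfactory bulb markers were at 382.9 to 492.3 CPM in these P301S Tia1+/- libraries against 2.4 to 5.9 CPM in PS19. With their sum as a covariate no member was called, against 7.32% of all genes (Hsph1 log2 fold change -0.53, edgeR adjusted p = 0.0853). Over all alternatives run, the log2 fold change ranged from -0.32 to -0.09 in Hsp90ab1 and from -0.30 to -0.11 in Hspa4l. It ranged from -0.41 to -0.16 in Dnaja1, from -0.43 to -0.22 in Chordc1 and from -0.58 to -0.51 in Hsph1. With 1 library left out, the highest values were -0.24 in Hsp90ab1, -0.23 in Hspa4l, -0.25 in Dnaja1 and -0.22 in Chordc1.

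P301S Tia1+/- and Tia1+/- cortex were compared to ask what P301S tau did where 1 Tia1 allele was lost. No member was called by edgeR, which called 0% of all genes, while 6 members had an unadjusted p under 0.05 (4 lower and 2 higher), against 15.6% of all genes, and DESeq2 called 2 (2.62% of all genes). Hsph1 was at 373, 312 and 323 CPM in Tia1+/- and at 219, 240 and 217 in P301S Tia1+/- libraries, a log2 fold change of -0.58 (SE 0.09, edgeR adjusted p = 0.146). Hspa2, a HSP70 best known from the testis, was at 44.9, 43.4 and 43.7 CPM in Tia1+/- and at 67.0, 65.5 and 63.2 in P301S Tia1+/- libraries.
The groups of Hspa2 did not overlap either, with the P301S Tia1+/- libraries higher by a log2 fold change of 0.57 (SE 0.20, edgeR adjusted p = 0.240), but WT replicate 1 was at 83.8 CPM against 55.9 and 41.0 in the other WT libraries. Hsp90ab1 had a log2 fold change of -0.27 (SE 0.09, adjusted p = 0.226), Hsf1 of -0.24 (SE 0.09, adjusted p = 0.264) and Cryab, the small heat shock protein alpha-B crystallin, of -0.44 (SE 0.17, adjusted p = 0.267). With the summed bulb markers as a covariate the values of Hspa2 and Cryab turned to -0.08 and 0.14. Without WT replicate 1 and Tia1+/- replicate 3, edgeR called 6 members (16.7%), against 23.4% of all genes.

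**Figure D4:**
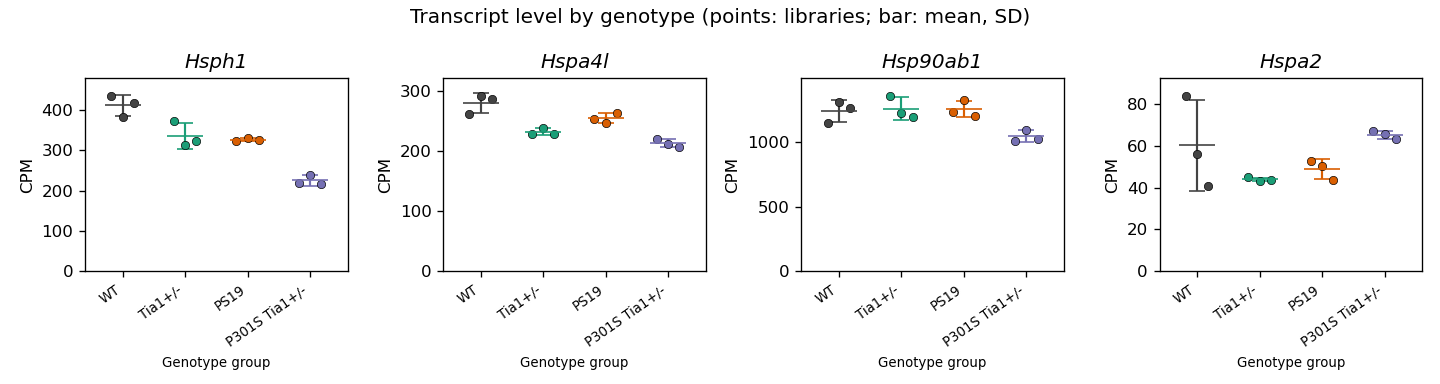
CPM (vertical axis, from 0) of Hsph1, Hspa4l, Hsp90ab1 and Hspa2 by genotype group (horizontal axis), with points for the 3 libraries of a group and bars for the mean and SD. The P301S Tia1+/- points of the first 3 genes lie below all others, and those of Hspa2, at 63.2 to 67.0 CPM, lie above the Tia1+/- and PS19 points.

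The interaction asked whether the difference between Tia1+/- and Tia1+/+ mice was itself different with P301S tau than without it. It is the P301S Tia1+/- minus PS19 difference less the Tia1+/- minus WT difference. No member was called by edgeR, which called 0.00648% of all genes (1 gene), while 10 members had an unadjusted p under 0.05, 9 of them above 0 on the log2 scale, against 22.9% of all genes, and DESeq2 called 4 (8.08% of all genes). Without WT replicate 1 and Tia1+/- replicate 3, edgeR called 1 member, Hspb1, against 13.5% of all genes. The smallest p and the largest value were those of Hspb1, at 2.18 (SE 0.52, edgeR adjusted p = 0.0694), whose Tia1+/- libraries were at 2.42, 2.96 and 3.93 CPM and whose P301S Tia1+/- libraries were at 4.09, 4.62 and 7.85. With the summed bulb markers as a covariate the value of Hspb1 was -0.03 and that of Hspa2 -0.38. The next members in order of p were Hspa1a at 1.0 (SE 0.28, adjusted p = 0.0883), Dnajb1 at 0.68 (SE 0.19, adjusted p = 0.0888), Fkbp4, an immunophilin that binds HSP90, at 0.42 (SE 0.12, adjusted p = 0.0952) and Hspa2 at 0.87 (SE 0.28, adjusted p = 0.115). For Hspa1a the mean fell from 25.3 ± 4.64 CPM in WT to 10.7 ± 2.32 in Tia1+/- and lay at 12.4 ± 1.13 in PS19 and 10.6 ± 2.01 in P301S Tia1+/- libraries (SD, n = 3).

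Of the small heat shock proteins, Hspb8 was at 11.8, 7.44 and 11.1 CPM in WT, within the range of 7.67 to 16.9 CPM in the other libraries but for 1 value, and Cryab was at 33.1 to 43.6 CPM in WT and 32.9 to 56.0 elsewhere. Bag3 was the lowest member, at 1.32 to 4.26 CPM, with a WT spread of 2.78 ± 1.35 CPM (SD, n = 3) that covered every other group mean. Hsf1 was at 17.1 to 23.4 CPM and Hsf2 at 29.96 to 45.3 CPM over all libraries, and neither was called in any comparison. The mitochondrial members Hspa9 and Hspd1, at 348 to 363 and 233 to 273 CPM in WT, were at 295 to 325 and 197 to 232 CPM in the other libraries, and Hspe1, the partner of Hspd1, was at 66.3 to 92.9 CPM in WT and 55.6 to 72.4 elsewhere.
The DNAJ members Dnaja2, Dnajb4 and Dnajb6 were at 230 to 285, 99.8 to 122 and 212 to 249 CPM in WT and at 185 to 257, 71.2 to 102 and 167 to 228 CPM elsewhere, and Ahsa1, which stimulates the ATPase of HSP90, was at 126 to 145 and 112 to 137 CPM. The TRiC subunits Tcp1, Cct2, Cct3, Cct4, Cct5, Cct7 and Cct8 were at 134 to 260 CPM in all libraries, and none was called in any comparison.
Exons of Hspa1a, Dnaja1, Dnajb6, Cryab, Hspd1, Hspe1, Tcp1, Cct7 and Cct8 overlap a gene on the other strand, from 112 bases between Hspd1 and Hspe1 to 608 between Dnaja1 and Smu1, and the strand setting of the counting is not given in the sources used here.

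Other chaperone genes were counted as a list of 62 symbols in the table, of which 60 were tested. In Tia1+/- against WT, 5 of the 60 fell, against 0.712% of all genes called, all but Dnajb5 (a cytosolic DNAJ protein) residents of the endoplasmic reticulum: Hspa5 (BiP, the HSP70 of that compartment), Dnajb11, Dnajc1 and Dnajc3. In P301S Tia1+/- against WT, Hspa5, Hsp90b1, Dnajb11, Dnajc1 and Dnajc3 fell and Dnajc27 rose, against 1.31% of all genes called. With edgeR none of the 60 was called in the other comparisons, and at an unadjusted p under 0.05 there were 13 lower and 3 higher in PS19 against WT (16.3% of all genes), 6 and 5 in P301S Tia1+/- against PS19 (19.3%), 1 and 3 in P301S Tia1+/- against Tia1+/- (15.6%), and 3 and 13 in the interaction (22.9%).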

How the data were processed

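Cortex RNA of 12 mice was sequenced in pairs of reads from stranded total RNA libraries made with 100 ng of RNA. The authors aligned reads to mm10 with TopHat2 (version 2.0.6 in the submitters' processing notes) and deposited raw read counts per gene from featureCounts; the annotation, strand setting and treatment of reads with several alignments are not given in the sources used here. The 36 genes and the other gene lists were chosen with earlier results of these data known. Symbols were matched to GENCODE M21 on GRCm38, and promoter sequences are RefSeq's on GRCm38.p6.

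Counts of all 12 libraries, 11978962 to 19146484 per library, were normalised by TMM, filtered with filterByExpr (15440 genes) and fitted with 1 mean per group in edgeR 4.0.16 (R 4.3.3), with quasi-likelihood F tests, Benjamini-Hochberg adjustment over all genes and a threshold of 0.05. The pipeline was tested on simulated data. Fold changes with SE and adjusted p are given for called members or, with fewer than 5 called, for the 5 of smallest p. No test of the members as a set was made. Alternatives were DESeq2 1.42.0 (Wald test and size factors), other filters, only the groups compared, a replicate block, each library left out and, chosen after seeing the data, 2 libraries left out together and the olfactory bulb marker level as a covariate. With 3 against 3 libraries an exact permutation test cannot go below p = 0.1, so none was used.

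No 2 libraries of the same group had counts that agreed within sampling noise. Replicate numbers were checked for pairing by the correlation of residuals: 7 of 18 same-numbered pairs exceeded 0.1 (range -0.538 to 0.346). All 3 pairs did so only between Tia1+/- and P301S Tia1+/- libraries, and in the fit of all libraries 0 members were called in that comparison with or without the block.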

Additional observations from a re-analysis of the deposited data

How the results depend on the processing

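The median log2 fold change over the members kept its sign in 5 of the 6 comparisons under every alternative run. In P301S Tia1+/- against Tia1+/- it was -0.013 and ranged from -0.038 to 0.020, the last without P301S Tia1+/- replicate 3. With DESeq2's Wald test 6 members were called in PS19 against WT, 14 in Tia1+/- against WT, 13 in P301S Tia1+/- against WT, 5 in P301S Tia1+/- against PS19, 2 in P301S Tia1+/- against Tia1+/- and 4 in the interaction, where it called 2.89%, 6.74%, 7.15%, 5.77%, 2.62% and 8.08% of all genes. With only the groups compared, edgeR called 0, 1, 7 and 2 members in Tia1+/- against WT and in P301S Tia1+/- against WT, PS19 and Tia1+/- (0.0408%, 0.0938%, 20.1% and 2.22% of all genes). Without a filter on low counts it called 0 in P301S Tia1+/- against PS19 (0.154% of all genes). The cause was not tested.

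The replicate numbers did not pair the samples across the 4 groups. With the replicate block, 0 members were called in Tia1+/- against WT, 2 in P301S Tia1+/- against WT and 0 in P301S Tia1+/- against PS19 (0.0583%, 0.117% and 0.0453% of all genes). With the replicate block in fits of 2 groups the counts were 0, 0 and 4 (0.0068%, 0.0335% and 16.2% of all genes). In P301S Tia1+/- against Tia1+/-, where all 3 same-numbered pairs correlated, the block gave 0 members in the fit of all libraries and in that of 2 groups (0% and 0.964% of all genes), against 0 and 2 without it (0% and 2.22%). It changed no other count.

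When 1 library was left out, the number of members called ranged from 0 to 7 in Tia1+/- against WT (0.0509% to 3.16% of all genes) and from 1 to 9 in P301S Tia1+/- against WT (0.0573% to 10.5%). It stayed at 0 in P301S Tia1+/- against PS19 (0.0382% to 0.0765%). In the interaction it ranged from 0 to 2, the 2 (5.56% of members) without WT replicate 3, where 6.59% of all genes were called. The median log2 fold change in Tia1+/- against WT ranged from -0.27 to -0.18. Without both WT replicate 1 and Tia1+/- replicate 3, a choice made after seeing the data, 1 member was called in PS19 against WT, 17 in P301S Tia1+/- against WT, 8 against PS19, 6 against Tia1+/- and 1 in the interaction (0.476%, 25.8%, 22.9%, 23.4% and 13.5% of all genes), and the median in Tia1+/- against WT was -0.18. With the summed bulb markers as a covariate, also chosen after seeing the data, 11 members were called in P301S Tia1+/- against WT, 0 against PS19 and 1 against Tia1+/- (8.17%, 7.32% and 7.03% of all genes), and the median against PS19 was -0.15. The same fit called 0 members in PS19 against WT, 6 in Tia1+/- against WT and 0 in the interaction (6.17%, 8.7% and 7.95% of all genes). Under that covariate Hspa2 (-0.076) and Cryab (0.14) reversed in P301S Tia1+/- against Tia1+/-, as did Hspb1 (-0.033) and Hspa2 (-0.38) in the interaction. Counting error is largest for the members of lowest level, Bag3, Hspb1, Hspb8, Hspa1b and Hspa1a.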
